A study of Mus musculus with 12 samples.

Results

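Bmp2, Bmp4, Bmp5, Bmp6, Bmp7, Bmp10, Gdf2 and Gdf10 are 8 genes for secreted ligands of the bone morphogenetic protein (BMP) and growth differentiation factor (GDF) branch of the TGF-beta family. They were taken by symbol from 24011 named genes measured in preparations of liver sinusoidal endothelial cells (LSECs), the fenestrated endothelium of the liver's capillaries, and all 8 were measured. The mice were wild type (WT, also labelled Ctrl), deficient in the scavenger receptor stabilin-1 (Stab1KO), deficient in stabilin-2 (Stab2KO) or deficient in both (DKO), all labelled C57BL/6J and aged 3 to 4 months. Each genotype has 3 Affymetrix arrays, and each array holds RNA of 3 pooled mice, so the spread between arrays is a spread between pools. The cells were bound with CD146 beads after liver perfusion and their RNA was extracted without culture. Purity was checked by flow cytometry, with no values in the labels. The type of each deleted allele, and whether WT and knockout mice were littermates, were also not given, so a difference of colony cannot be told apart from genotype in comparisons against WT.

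Ligands of this family are made as proproteins, cleaved by proprotein convertases and secreted as dimers that bind a pair of type I and type II serine/threonine kinase receptors. The receptors phosphorylate Smad1, Smad5 and Smad9, which enter the nucleus with Smad4 and induce genes such as Id1, Smad6 and Smad7. In the liver, Gdf2 (which encodes BMP9) and Bmp10 products circulate and act on endothelium through the type I receptor gene product of Acvrl1 and the co-receptor endoglin, whereas BMP2 and BMP6 are made by the sinusoidal endothelium itself and induce the iron hormone hepcidin, the product of Hamp, in hepatocytes.

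All values are log2 expression values from robust multi-array averaging (RMA), with an array median of 5.11. No detection calls were used here, so values near that median hold an unknown share of background, and a fall that ends there may be larger than measured. The arrays followed their labels: Stab1 lay between 12.46 and 12.62 where it was present and between 4.98 and 5.45 where it was deleted, and Stab2 between 12.99 and 13.09 and between 5.46 and 7.60. DKO replicate 3 stood apart, correlating across genes with the other 11 arrays at 0.956 to 0.968, where those 11 correlated with each other at 0.987 or more. The mean of 14 neutrophil markers was 11.49 in that array and 5.26 to 6.49 in the others. The mean of 17 sinusoidal endothelial markers was 12.10 in that array and 12.38 to 12.52 in the other 11, so the labelled cell type was present in every array.

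The family split by gene. Bmp5, Bmp10 and Gdf2 fell in all 3 knockouts, Gdf10 fell in Stab1KO and DKO, and Bmp2, Bmp6, Bmp7 and Bmp4 passed the test in no comparison against WT. Of the 8 genes, 4 fell and 0 rose in Stab1KO, where 0.279% of all genes fell; 3 fell and 0 rose in Stab2KO, where 0.212% fell; and 4 fell and 0 rose in DKO, where 1.05% fell (limma, adjusted p under 0.05 over all genes). Of all genes, 0.0292%, 0.0833% and 0.754% rose. The median log2 difference of the 8 was -1.16, -0.73 and -1.24 in that order, beside 0.01, 0.01 and -0.02 over all genes. These genes were selected with earlier results in view, so the counts describe them and do not show that the family as a whole stands out. The 3 comparisons also share the WT arrays and are not independent of each other.

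**Figure D1:**
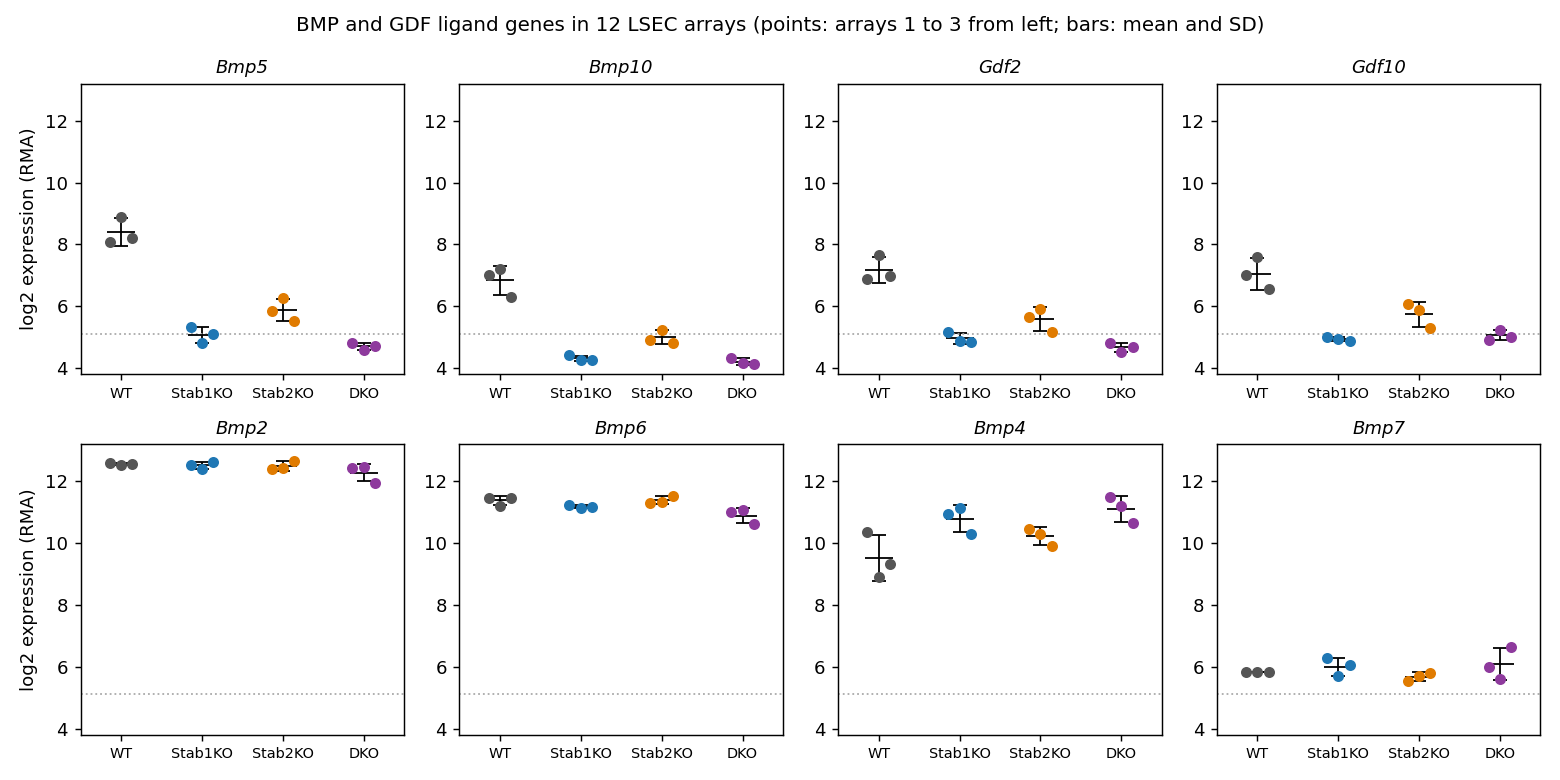
Log2 expression (vertical axis, the same in every panel) of the 8 ligand genes in each array by genotype (horizontal axis). Points are arrays, bars are the mean and SD of 3 arrays, and the dotted line is the array median of 5.11. For Bmp5, Bmp10, Gdf2 and Gdf10 every knockout array lies below every WT array, while Bmp2 stays between 11.96 and 12.67 in all 12.

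Bmp5, whose product is a BMP of skeletal and soft tissue development, had the largest differences of the 8 genes. It measured 8.07, 8.90 and 8.21 in WT, against 5.31, 4.81 and 5.10 in Stab1KO. In Stab2KO it measured 5.86, 6.25 and 5.53, and in DKO 4.81, 4.57 and 4.70. All 9 knockout arrays lay below all 3 WT arrays, and those of Stab1KO and DKO lay around or below the array median. The differences from WT were -3.32 ± 0.23 (SE) in Stab1KO (adjusted p = 0.00013), -2.52 ± 0.23 in Stab2KO (adjusted p = 0.0017) and -3.70 ± 0.23 in DKO (adjusted p = 3.5e-05). On the linear scale these were 10-fold, 5.72-fold and 13.0-fold lower.

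Bmp10 encodes a ligand of the endothelial receptor Acvrl1 that is best known from the heart. It measured 6.99, 7.21 and 6.31 in WT and 4.41, 4.27 and 4.25 in Stab1KO. In Stab2KO it measured 4.92, 5.24 and 4.81, and in DKO 4.34, 4.17 and 4.11. No knockout array reached the WT range, and 8 of the 9 lay below the array median. It fell in all 3, with a difference of -2.52 ± 0.20 in Stab1KO (adjusted p = 0.00033), -1.85 ± 0.20 in Stab2KO (adjusted p = 0.0049) and -2.63 ± 0.20 in DKO (adjusted p = 0.00012). The call in Stab2KO was lost in a fit of the 6 compared arrays alone (adjusted p = 0.069, with a range of 0.00063 to 1.0 over all alternatives).

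Gdf2 encodes BMP9, the other high-affinity ligand of Acvrl1. It measured 6.87, 7.64 and 6.97 in WT and 5.15, 4.88 and 4.84 in Stab1KO. In Stab2KO it measured 5.66, 5.92 and 5.15, and in DKO 4.80, 4.50 and 4.68. The WT arrays again lay above all others, and the lowest Stab2KO array was level with the highest Stab1KO array. Gdf2 fell in all 3 knockouts, and its differences from WT were -2.20 ± 0.23 in Stab1KO (adjusted p = 0.0016), -1.58 ± 0.23 in Stab2KO (adjusted p = 0.016) and -2.498 ± 0.23 in DKO (adjusted p = 0.00034). The call in Stab2KO was lost without Stab2KO replicate 1 (-1.63, adjusted p = 0.060) and in a fit of the 6 compared arrays alone (adjusted p = 0.14), with a range of 0.0068 to 1.0 over all alternatives.

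Gdf10 encodes BMP3B, a divergent member of the family. It measured 7.004, 7.58 and 6.55 in WT and 4.99, 4.92 and 4.88 in Stab1KO. In Stab2KO it measured 6.07, 5.86 and 5.29, and in DKO 4.92, 5.24 and 5.01. All knockout arrays lay below the WT arrays, those of Stab2KO closest to them. It fell by 2.11 ± 0.25 in Stab1KO (adjusted p = 0.0036) and it fell by 1.99 ± 0.25 in DKO (adjusted p = 0.0037). The difference in Stab2KO was -1.31 ± 0.25 and did not pass (adjusted p = 0.076). It passed without WT replicate 3 (-1.56, adjusted p = 0.046), with a range of 0.042 to 1.0 over all alternatives. The difference in DKO did not pass in a fit of the 6 compared arrays alone (adjusted p = 0.051, with a range of 0.00094 to 1.0).

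Because these 4 genes were low together, the 250 bases before the annotated start of each are given here, with Bmp6 as a member that passed no test. They are RefSeq sequences of GRCm38.p6, which held such an entry for 6 of the 8 members, written 5′ to 3′ on the gene's strand. Capitals mark matches on either strand to TATAAA, the core promoter box, to CCAAT, bound by nuclear factor Y, to the E box CANNTG of basic helix-loop-helix factors, to the homeodomain core TAATTA, and to AGATAA, which GATA factors bind.
Bmp5 (chr9:75775115-75775364, plus strand): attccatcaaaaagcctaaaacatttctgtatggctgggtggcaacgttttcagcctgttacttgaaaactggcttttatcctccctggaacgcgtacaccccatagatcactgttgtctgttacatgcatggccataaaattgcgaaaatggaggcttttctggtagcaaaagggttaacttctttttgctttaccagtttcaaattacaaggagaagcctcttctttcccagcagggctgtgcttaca
Bmp10 (chr6:87428744-87428993, plus strand): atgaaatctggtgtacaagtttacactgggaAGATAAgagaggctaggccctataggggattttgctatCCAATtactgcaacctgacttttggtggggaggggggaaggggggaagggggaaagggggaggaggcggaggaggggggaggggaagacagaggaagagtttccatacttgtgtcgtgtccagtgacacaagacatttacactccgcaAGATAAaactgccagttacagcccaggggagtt
Gdf2 (chr14:33940789-33941038, plus strand): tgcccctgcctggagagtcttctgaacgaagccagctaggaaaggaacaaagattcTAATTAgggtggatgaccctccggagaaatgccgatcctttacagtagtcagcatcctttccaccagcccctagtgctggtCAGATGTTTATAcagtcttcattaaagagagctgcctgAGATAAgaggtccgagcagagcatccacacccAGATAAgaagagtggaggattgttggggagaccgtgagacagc
Gdf10 (chr14:33923337-33923586, plus strand): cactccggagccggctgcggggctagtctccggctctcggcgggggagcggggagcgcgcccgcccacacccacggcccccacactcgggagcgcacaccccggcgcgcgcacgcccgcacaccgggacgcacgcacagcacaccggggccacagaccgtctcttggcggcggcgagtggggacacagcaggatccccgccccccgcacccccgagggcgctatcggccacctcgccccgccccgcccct
Bmp6 (chr13:38345466-38345715, plus strand): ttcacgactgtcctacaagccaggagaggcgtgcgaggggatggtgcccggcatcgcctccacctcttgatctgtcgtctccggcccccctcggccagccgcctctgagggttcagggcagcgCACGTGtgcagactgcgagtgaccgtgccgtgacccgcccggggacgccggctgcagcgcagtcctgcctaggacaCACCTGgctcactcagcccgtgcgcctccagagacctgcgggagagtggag

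The 4 windows had little in common by these motifs. AGATAA occurred at 2 places in each of Bmp10 and Gdf2, and 9.99% of 32817 promoter windows of this length hold it. Gdf2 also held TAATTA, found in 4.85% of windows, and an E box, found in 66.2%, that ends where a reversed TATAAA begins; TATAAA was found in 12.4%. Bmp10 held 1 CCAAT, found in 33.8%. Neither Bmp5 nor Gdf10 held any of the 5 motifs, and Bmp6 held 2 E boxes. No matches overlapped. The share of G and C was 42.8% for Bmp5, 52.0% for Bmp10, 50.4% for Gdf2 and 78.8% for Gdf10, beside a median of 52.4% over all windows. A match of letters is not a binding site, and no binding was measured here.

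Gdf10 and Gdf2 are next to each other on chromosome 14, with no annotated gene between them and 17.5 kb between their starts. Stab1 lies on the same chromosome, with its start 2.77 Mb from that of Gdf2 and 2.75 Mb from that of Gdf10, and Bmp4 lies there 15.2 Mb from Stab1. In Stab1KO and DKO a chromosome segment carried with the targeted Stab1 allele therefore cannot be told apart from loss of Stab1 for these genes. In Stab2KO, where Stab1 was at 12.48 to 12.59 as in WT, Gdf2 also fell and Gdf10 differed by -1.31. Bmp5 and Bmp10 lie on chromosomes 9 and 6, and Stab2 lies on chromosome 10, which holds none of the 8 genes.

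The order of the genotypes was the same for Bmp5, Bmp10 and Gdf2, with the mean highest in WT, then Stab2KO, then Stab1KO, and lowest in DKO. For Gdf10 the means of Stab1KO and DKO were in the reverse order, 4.93 ± 0.06 and 5.06 ± 0.17 (SD, n = 3). None of the 8 genes passed the test between Stab1KO and DKO, where 0.945% of all genes were called; 1, Bmp6, was under 0.05 unadjusted. The differences of DKO from Stab1KO were -0.38 ± 0.23 for Bmp5, -0.10 ± 0.20 for Bmp10, -0.30 ± 0.23 for Gdf2 and 0.13 ± 0.25 for Gdf10, with 95% confidence intervals that reached -0.89, -0.54, -0.79 and -0.42 at their lower ends. Stab2KO lay above Stab1KO by 0.80 for Bmp5, 0.68 for Bmp10, 0.62 for Gdf2 and 0.81 for Gdf10, and 0 of the 8 genes were called there (adjusted p = 0.46, 0.48, 0.59 and 0.49), where 0.108% of all genes were. These 4 genes were under 0.05 before adjustment. The share of all genes under 0.05 unadjusted is not given here.

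DKO lay below Stab2KO for the same 4 genes. Bmp5 fell by 1.18 ± 0.23 between them (adjusted p = 0.029) and was the only one of the 8 called, where 2.12% of all genes fell. Bmp10 differed by -0.78 ± 0.20, Gdf2 by -0.91 ± 0.23 and Gdf10 by -0.68 ± 0.25 (adjusted p = 0.059, 0.053 and 0.16). The call of Bmp5 was lost without Stab2KO replicate 1, Stab2KO replicate 2, DKO replicate 1 or DKO replicate 2 (adjusted p = 0.098, 0.11, 0.056 and 0.059, with a range of 0.012 to 0.49 over all alternatives). The departure from additivity, which compares loss of Stab1 on the Stab2KO background with its loss on the WT background, was 2.14 ± 0.33 for Bmp5, 1.74 ± 0.28 for Bmp10, 1.29 ± 0.32 for Gdf2 and 1.43 ± 0.35 for Gdf10. None passed (adjusted p = 0.054, 0.056, 0.14 and 0.14), where 0.05% of all genes were called, and these 4 were under 0.05 unadjusted. Without DKO replicate 3 Bmp5 and Bmp10 passed (adjusted p = 0.038 and 0.041), and Bmp10 passed without WT replicate 3 (adjusted p = 0.0063). The values in Stab1KO and DKO lie near or below the array median, so a lower limit of the measured scale and a true departure cannot be told apart.

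**Figure D2:**
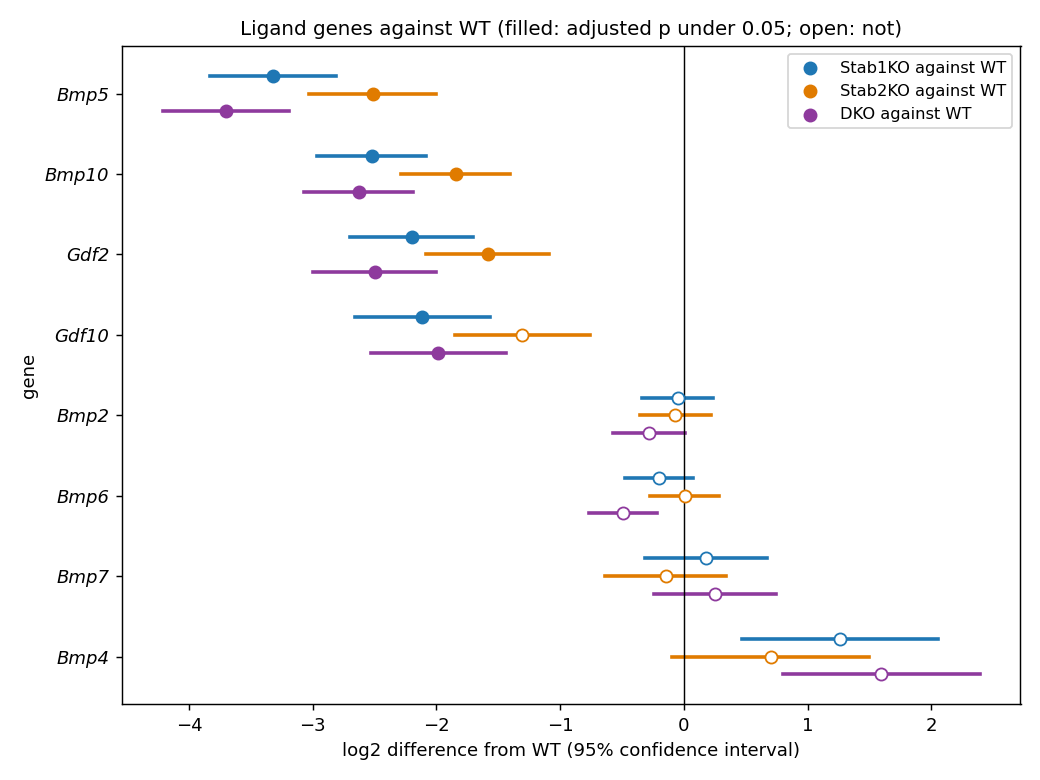
Log2 difference from WT (horizontal axis) of each ligand gene (vertical axis) in Stab1KO, Stab2KO and DKO, with the 95% confidence interval of the limma model; filled points passed at an adjusted p under 0.05. The falls of Bmp5 range from -2.52 to -3.70, and the intervals of Bmp2 lie between -0.57 and 0.24.

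Bmp2 and Bmp6, the pair of BMP genes of the sinusoidal endothelium, were near WT in the single knockouts. Bmp2 measured 12.60, 12.55 and 12.56 in WT, 12.52, 12.42 and 12.62 in Stab1KO, 12.39, 12.43 and 12.67 in Stab2KO, and 12.42, 12.47 and 11.96 in DKO. Its differences from WT were -0.05 (95% confidence interval -0.34 to 0.24) in Stab1KO, -0.07 (-0.36 to 0.22) in Stab2KO and -0.28 (-0.57 to 0.01) in DKO. The single knockouts overlapped WT, and DKO lay below it mainly through replicate 3, the array with neutrophil markers: without that array the difference was -0.12 ± 0.10.

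Bmp6 measured 11.47, 11.22 and 11.47 in WT, 11.23, 11.13 and 11.19 in Stab1KO, 11.30, 11.33 and 11.54 in Stab2KO, and 11.01, 11.06 and 10.61 in DKO. All 3 DKO arrays lay below all other arrays. The difference in DKO was -0.49 ± 0.12 and did not pass (adjusted p = 0.079), and it was -0.35 ± 0.10 without DKO replicate 3 (adjusted p = 0.14). In Stab1KO and Stab2KO it was -0.20 (-0.48 to 0.07) and 0.01 (-0.27 to 0.28). DKO lay below Stab2KO by a similar amount, -0.50 ± 0.12 (adjusted p = 0.056). The part that the neutrophil RNA of DKO replicate 3 had in these differences was not tested further. Of the 17 sinusoidal endothelial markers, 14 also lay below WT in DKO and 3 above, with a median of -0.15 and 0 called. Before adjustment 11 of the 17 were under 0.05, 9 of them lower and 2 higher. Wnt2, on that list, fell in DKO against each single knockout. Whether Bmp2 and Bmp6 shifted with these markers was not tested.

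Bmp4, a BMP of vessels and mesenchyme, was the one ligand gene with higher means in every knockout, and it passed no test. It measured 10.36, 8.90 and 9.32 in WT, a spread of 0.75 (SD), and 10.94, 11.13 and 10.30 in Stab1KO. In Stab2KO it measured 10.48, 10.29 and 9.92, and in DKO 11.50, 11.21 and 10.67. WT replicate 1 lay inside the ranges of both single knockouts, and only the DKO arrays all lay above WT. The differences from WT were 1.26 ± 0.36 for Stab1KO (adjusted p = 0.68), 0.70 ± 0.36 for Stab2KO (adjusted p = 0.71) and 1.596 ± 0.36 for DKO (adjusted p = 0.054). The difference in DKO passed without WT replicate 1 (2.01, adjusted p = 0.016) and without DKO replicate 3 (1.82, adjusted p = 0.044), and it was 1.28 without WT replicate 2 (adjusted p = 0.20). Over all alternatives its adjusted p ranged from 0.012 to 1.0.

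Bmp7, a BMP best known from the kidney, measured 5.82 to 5.85 in WT, 5.71 to 6.28 in Stab1KO, 5.54 to 5.81 in Stab2KO and 5.61 to 6.64 in DKO. Its highest array was DKO replicate 3. The differences from WT were 0.18 ± 0.22, -0.15 ± 0.22 and 0.25 ± 0.22, and the last was -0.03 without that array. Over the 8 genes, the arrays of Stab1KO lay all below those of WT for 4 genes (4.72% of all genes did), those of Stab2KO for 5 (7.63%) and those of DKO for 6 (15.0%). Bmp7 was the fifth in Stab2KO, by 0.01 between the nearest arrays. Those of DKO lay all above WT for Bmp4 alone (8.97%), and those of Stab1KO and Stab2KO for 0 (5.36% and 8.09%).

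Markers of stellate cells, which store retinoids and line the outside of liver sinusoids, moved with the 4 ligand genes that were low. Of 26 measured markers of 27 listed, none of them a ligand gene, 16 fell and 0 rose in Stab1KO, where 0.279% of all genes fell. In Stab2KO 15 fell and 0 rose, where 0.212% of all genes fell, and in DKO 18 and 0, where 1.05% fell. The median differences were -1.55, -1.10 and -1.51, and all 26 lay below WT in each. These markers were chosen with earlier results of these data known, so the counts only describe them. The mean of the list was 7.46 to 7.95 in WT, 6.06 to 6.27 in Stab1KO, 6.36 to 6.53 in Stab2KO and 5.98 to 6.15 in DKO. Between DKO and Stab2KO 6 of the 26 fell and 0 rose, Lrat among them, where 2.12% of all genes fell. The departure from additivity was above 0 for all 26, with a median of 0.99, and 1 (Lum) was called, where 0.05% of all genes were. The positive departures of the 4 ligand genes were thus shared by these markers. Of the defining markers, the retinol-esterifying enzyme gene Lrat measured 9.13 to 9.77 in WT and 5.20 to 7.60 in the knockouts, and the secreted glycoprotein gene Reln 8.37 to 9.06 and 5.24 to 6.92. Des, Lhx2, Hand2 and Pdgfrb lay between 5.66 and 7.10 in WT and between 4.95 and 6.13 in the knockouts. Lrat and Reln were called in all 3 knockouts, Pdgfrb in Stab1KO and DKO, Hand2 in DKO alone, and Des and Lhx2 in none. None of these markers can be called absent without detection calls. In bulk preparations fewer cells of a type and less RNA per cell cannot be told apart.

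Within WT, replicate 2 was the highest array for each of the 4 ligand genes and for the stellate mean. Measured against the stellate mean of the same array, Gdf10 was -0.62 ± 0.36 (SD, n = 3) in WT, -1.23 ± 0.08 in Stab1KO, -0.74 ± 0.31 in Stab2KO and -0.999 ± 0.25 in DKO. Bmp5 was 0.73 ± 0.19 in WT and -1.09 ± 0.15, -0.60 ± 0.29 and -1.36 ± 0.03 in the knockouts, so it was lower by more than the mean of the list. The means of Bmp10 and Gdf2 were also lower by more. Bmp10 was -0.83 ± 0.41 in WT and -1.85 ± 0.06, -1.48 ± 0.18 and -1.85 ± 0.07 in the knockouts. Gdf2 was -0.505 ± 0.165 in WT and -1.20 ± 0.10, -0.90 ± 0.31 and -1.39 ± 0.07 in the knockouts. In Stab1KO and Stab2KO 0 of the 26 markers differed by more than Bmp5, and in DKO 1 did. In a fit with the stellate mean as a covariate 0 of the 8 ligand genes were called in any comparison against WT, and for Bmp5 in DKO the difference was -0.65 ± 0.53. The SE of that difference was 0.23 without the covariate. The share of all genes called in the covariate fit is not given here, so the count of 0 is not a result about these genes alone. In that fit the DKO differences of Gdf2, Gdf10 and Bmp4 turned sign, to 0.42, 0.26 and -0.64. The stellate means of WT and knockouts do not overlap, so marker level and genotype cannot be told apart in these arrays.

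**Figure D3:**
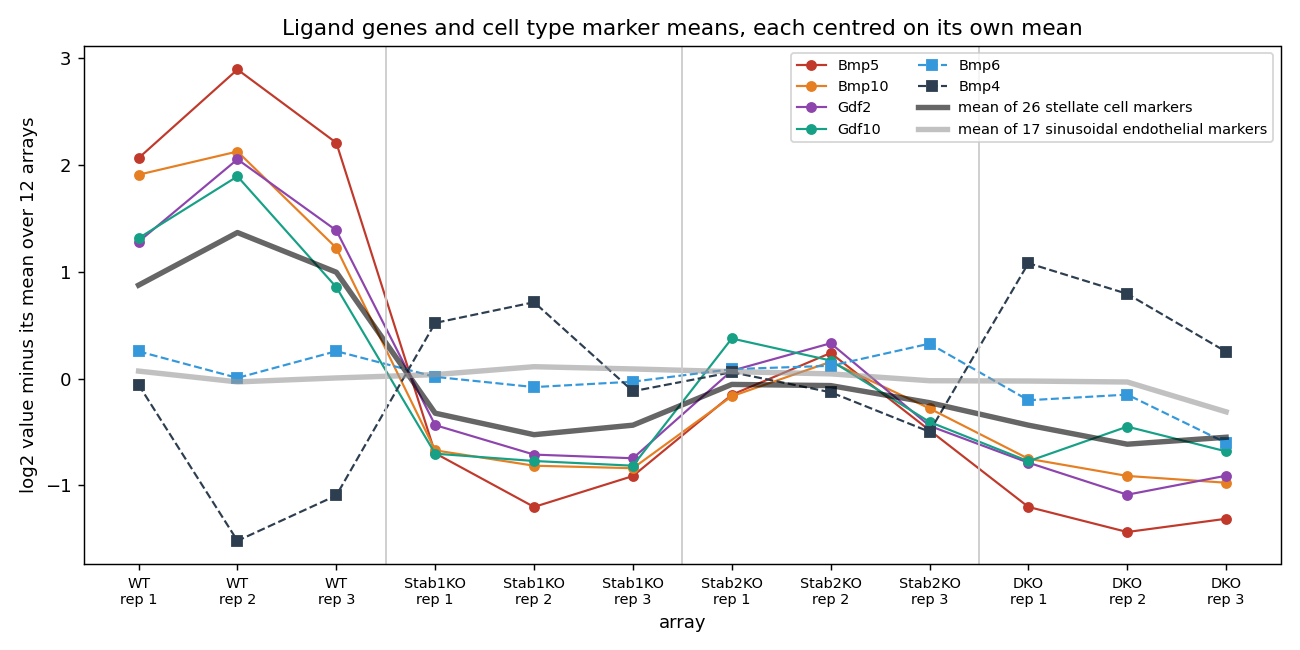
Log2 value minus its own mean over 12 arrays (vertical axis) in each array (horizontal axis) for 6 ligand genes, and for the mean of 26 stellate and 17 sinusoidal endothelial markers (thick lines). Bmp5, Bmp10, Gdf2, Gdf10 and the stellate mean are highest in the WT arrays, with replicate 2 on top, while Bmp4 is lowest in WT replicate 2.

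By the root mean square difference of centred values over the 12 arrays, a measure of likeness ranked over 19642 named genes other than the 8 ligand genes, the 3 nearest to Bmp5 were Lrat (0.297), the collectin gene Colec10 (0.301) and Tlcd4 (0.317). Outside the ligand genes, nearest to Bmp10 were the proteoglycan gene Lum (0.245), the hedgehog-binding protein gene Hhip (0.246) and the proteoglycan gene Dcn (0.252). Ranked in the same way, nearest to Gdf2 were Dcn (0.15), Hhip (0.203) and the vasoactive intestinal peptide receptor gene Vipr1 (0.221), and nearest to Gdf10 were Islr (0.218), the parathyroid hormone receptor gene Pth1r (0.265) and Dcn (0.292). All but Tlcd4 and Islr are on the stellate list, which was chosen with earlier results of these data known. Membership in it is therefore a description and not independent evidence. Between ligand genes the difference was 0.233 for Bmp10 and Gdf2, less than that of Bmp10 to Lum but more than those of Gdf2 to Dcn, Hhip and Vipr1. For Gdf2 and Gdf10 it was 0.283, less than that of Gdf10 to Dcn but more than those of Gdf10 to Islr and Pth1r. The ligand gene nearest to Bmp5 was Bmp10 (0.445), farther than Lrat, Colec10 and Tlcd4. For Gdf2 and Bmp4 the difference was 1.65.

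Other ligand genes of the family gave 1 call against WT. Of 23 measured, 0 were called in the single knockouts (3 and 4 were under 0.05 unadjusted in Stab1KO and Stab2KO), and Tgfb2, a TGF-beta isoform gene, rose in DKO. It measured 6.87, 5.95 and 6.27 in WT and 7.57, 7.23 and 7.31 in DKO, a difference of 1.00 ± 0.19 (adjusted p = 0.031). The call was lost without WT replicate 2 or 3, Stab2KO replicate 1 or 2, or DKO replicate 1 or 2 (adjusted p = 0.099, 0.11, 0.053, 0.052, 0.076 and 0.0501), with a range of 0.0027 to 1.0 over all alternatives. The list's median differences were 0.01, 0.00 and 0.02. Between DKO and Stab2KO, Inha, which encodes the alpha subunit of inhibin, fell by 0.52 ± 0.10 (adjusted p = 0.029).

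Receptor genes did not pass the test in any knockout against WT: 0 of 13 were called by limma, with 0, 1 and 1 under 0.05 unadjusted and medians of 0.00, -0.06 and -0.06. Acvrl1, the type I receptor gene for BMP9 and BMP10, measured 8.42 to 8.57 in WT, 8.51 to 8.74 in Stab1KO and 8.66 to 8.96 in Stab2KO. In DKO it measured 8.55, 8.67 and 10.04, the last in the array with neutrophil markers. The co-receptor gene Eng lay between 13.46 and 13.63 in all 12 arrays, and the type II receptor gene Bmpr2 between 10.86 and 11.52. Bmpr1a, a type I receptor gene for BMP2 and BMP4, measured 5.97 to 6.28 in WT, 5.32 to 5.86 in Stab1KO, 4.77 to 5.67 in Stab2KO and 5.97 to 7.25 in DKO.

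Among 18 antagonists and modulators, Fstl3, which encodes a binding protein of activins, rose in DKO by 0.89 ± 0.15 (adjusted p = 0.019), and 0 others were called against WT; 1 and 4 of the 18 were under 0.05 unadjusted in Stab1KO and Stab2KO. It measured 6.53 to 6.57 in WT and 7.42, 7.11 and 7.79 in DKO. The call was lost without WT replicate 1, 2 or 3 or DKO replicate 1 (adjusted p = 0.059, 0.085, 0.067 and 0.051), with a range of 0.0052 to 1.0 over all alternatives. Markers of cholangiocytes, the epithelium of bile ducts, rose in the same arrays as Tgfb2 and Fstl3. Of 6 measured, 4 (Krt19, Epcam, Sox9 and Muc1) rose in DKO, where 0.754% of all genes rose, with a median of 1.25 over the 6. Their mean was 7.29, 6.80 and 7.45 in DKO and 5.64 to 6.28 in the other 9 arrays, and its part in the rises of Tgfb2 and Fstl3 was not tested. The mean of 7 smooth muscle markers was 5.77 to 5.93 in WT, 5.60 to 5.85 in Stab1KO, 5.89 to 6.78 in Stab2KO and 6.12 to 6.63 in DKO. In DKO 6 of the 7 lay above WT and 1 below, with 0 called. Their part in the values of Tgfb2, Fstl3 and Bmp4 was not tested either. Of 7 proprotein convertase and tolloid genes, which encode the proteases that process these ligands and their antagonists, 0 were called, with 2, 0 and 2 under 0.05 unadjusted. The tolloid genes Bmp1 and Tll1 had the largest differences there, -0.41 in Stab2KO and 0.33 in Stab1KO.

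Genes downstream of the ligands were not called in any knockout. Of 16 Smad and BMP target genes 0 passed, with medians of -0.02 in Stab1KO, 0.17 in Stab2KO and 0.19 in DKO. Before adjustment 2, 1 and 3 were under 0.05, counts given without the share of all genes. Id1, the classical immediate target, measured 10.23 to 10.35 in WT, 10.14 to 10.26 in Stab1KO, 10.33 to 10.62 in Stab2KO and 10.19 to 10.84 in DKO. Smad6 differed by 0.05, 0.24 and 0.21, Smad7 by 0.09, 0.09 and 0.17, and Id2, a further Id gene, by -0.04, 0.17 and 0.43. Each of these stayed short of the test.

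Hamp, which encodes hepcidin, differed most in this list. It measured 4.80, 4.97 and 5.53 in WT and 5.59, 4.40 and 5.08 in Stab1KO. In Stab2KO it measured 7.08, 7.15 and 8.86, and in DKO 7.56, 6.87 and 6.79. All 6 arrays without Stab2 lay above all 6 arrays with it. The share of all genes that separate in this way is not given here. The WT differences of Hamp, 2.597 ± 0.46 for Stab2KO and 1.97 ± 0.46 for DKO, did not pass by limma (adjusted p = 0.056 and 0.062). They passed when genes of low signal were left out (adjusted p = 0.035 and 0.043), and over all alternatives the ranges were 0.023 to 1.0 and 0.014 to 1.0. Hamp is a hepatocyte gene with a near-identical mouse copy, Hamp2, whose signal may be shared. Hamp2 was measured by its own row and differed from WT by -0.16 in Stab1KO, 0.18 in Stab2KO and 0.04 in DKO, with no call. Whether the 2 rows share signal was not tested. The mean of 13 hepatocyte markers was 7.87 to 8.997 in WT, 7.83 to 9.13 in Stab1KO, 7.80 to 8.23 in Stab2KO and 7.75 to 8.73 in DKO, and 0 of the 13 were called in any knockout against WT, with 0, 2 and 1 under 0.05 unadjusted. The mean of 13 markers of Kupffer cells, the resident macrophages, was 7.42 to 7.85 in Stab2KO, 7.77 to 9.77 in WT, 8.44 to 9.35 in Stab1KO and 8.10 to 9.16 in DKO. All 13 lay below WT in Stab2KO, with a median of -1.26, and 0 were called by limma, with 10 under 0.05 unadjusted; their part in the differences of Stab2KO was not tested.

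**Figure D4:**
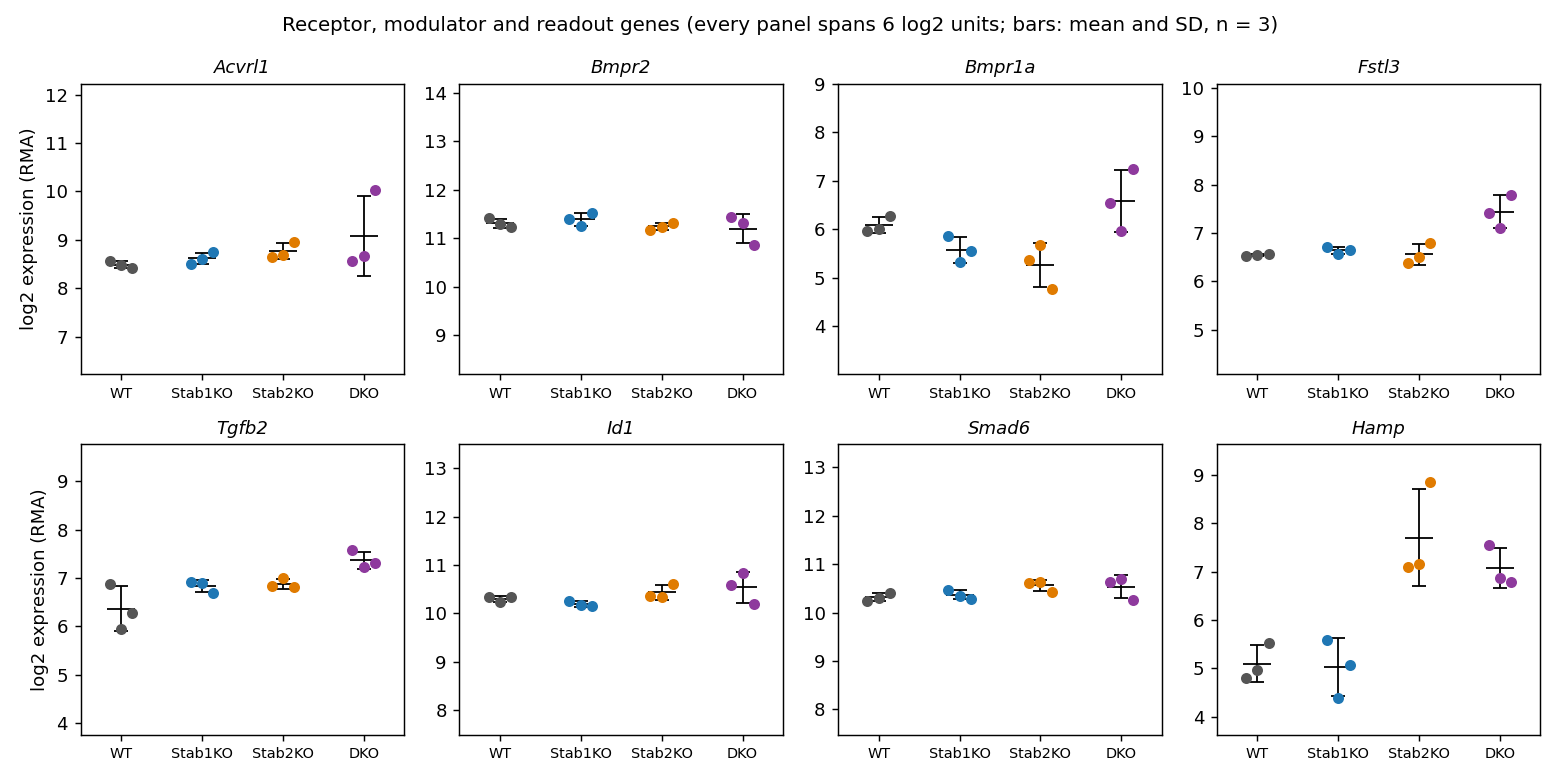
Log2 expression (vertical axis, the same span in every panel) by genotype (horizontal axis) of receptor genes (Acvrl1, Bmpr2, Bmpr1a), a binding protein gene (Fstl3), a further ligand gene (Tgfb2) and readout genes (Id1, Smad6, Hamp). Points are arrays and bars the mean and SD of 3 arrays; Hamp lies at 6.79 or above in every Stab2KO and DKO array and at 5.59 or below in the others.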

How the data were processed

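RNA of 12 LSEC pools was measured on Affymetrix arrays. The authors deposited RMA values on the log2 scale for each gene identifier in each array, per the submitters' processing notes. The sources used here do not give the RMA version, chip definition or genome build. Quantile normalization in RMA gives all arrays nearly the same distribution: the sorted values differed by at most 0.00187 between arrays. Of 24973 rows, 24015 had 1 symbol in the platform annotation and 958 were unnamed; the row with the highest mean was kept per symbol, and each ligand gene had 1 row.

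Differences were tested with limma 3.58.1 in R 4.3.3: 1 model with 4 group means over the 12 arrays, 7 contrasts, two-sided moderated tests and Benjamini-Hochberg adjustment over 24011 genes within a contrast, with a call at an adjusted p under 0.05. The fit was tested on simulated data. Counts under 0.05 unadjusted are given for single lists without the share of all genes, so they have no background beside them. Precision is limited by 3 pools a group, and p-values measure the spread between pools only. Same-numbered arrays are not known to be paired: the correlation of their deviations from the group means was above 0.1 in 4 of 18 pairs. The members, lists and naming rule (the 8 ligand genes, called genes of each pathway list or else its 2 largest differences, 7 textbook receptor and readout genes, and the 3 nearest genes) were chosen with earlier results of these data known. Alternatives are given in the closing section.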

Additional observations from a re-analysis of the deposited data

Results flagged for a closer look

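Bmpr1a was singled out because its arrays moved in opposite directions on the 2 backgrounds: every Stab1KO array lay below every WT array, and every DKO array above every Stab2KO array, and likewise for Stab2 loss with and without Stab1. Only the ligand genes and the named pathway genes were searched for this pattern. The share of all genes that show it is not given here. The departure from additivity was 1.83 ± 0.43 and did not pass the test (adjusted p = 0.13). Between DKO and Stab2KO Bmpr1a rose by 1.32 (adjusted p = 0.045, limma), and the share of all genes that rose there is not given here. In DKO its highest array was replicate 3, the array with neutrophil markers, whose part was not tested.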

How the results depend on the processing

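Each comparison was refitted under 8 other settings and without each of the 12 arrays in turn. The share of all genes called is not given for any of these fits. Counts of called ligand genes in them therefore have no background beside them, and a changed count is not a result about these genes alone. Of the 1352 recomputed differences of ligand and pathway genes, 1250 kept their direction and their side of the threshold, 30 lost a call, 32 gained one and 40 changed sign, of which 35 were not called in the first place. The 5 called differences that changed sign all did so with the stellate marker mean as a covariate. Their cause was not tested beyond the fact that the marker mean does not overlap between WT and knockouts.

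With that covariate 0 ligand genes were called against WT in Stab1KO, Stab2KO or DKO, and 0 between DKO and Stab2KO. The ranges of adjusted p over all alternatives given above have their upper ends from this covariate fit. Bmp5, for which no range against WT is given above, lost its calls against WT in it as well. The signs that turned, in the order Stab1KO, Stab2KO and DKO against WT, were those of Bmp4 (-0.83, -0.96 and -0.64), Gdf2 (0.53, 0.58 and 0.42) and Tgfb2 (-0.89, -0.55 and -0.45). In Stab2KO they were also those of Bmp6 (-0.54), Bmp7 (0.18), Gdf10 (0.36), Bmpr1a (0.16) and Fstl3 (-0.044), in DKO that of Gdf10 (0.26), in Stab1KO that of Bmpr1a (0.73), and between Stab2KO and Stab1KO that of Bmp2 (0.025). In the departure from additivity they were those of Bmp4 (1.15), Bmp6 (0.20), Bmp7 (-0.075), Gdf2 (-0.68) and Gdf10 (-0.083). With array weights Hamp in Stab1KO (0.027), Bmp6 in Stab2KO (-0.026), Fstl3 in Stab2KO (-0.048), Bmp7 between DKO and Stab1KO (-0.21) and Bmp7 in the departure (-0.036) turned sign.

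In a fit of only the arrays compared, with fewer samples to estimate the spread, 1 ligand gene was called in Stab2KO and 0 between DKO and Stab2KO. The latter count was 4 with genes of low signal left out, 3 with a trended and robust prior, 2 with array weights, and 0 to 2 without single arrays: 2 without WT replicate 2, WT replicate 3 or Stab2KO replicate 3, and 0 without Stab2KO replicate 1 or 2 or DKO replicate 1 or 2. The departure was called for 2 genes under each of the first 3 of these settings, and for 0 to 2 without single arrays: 1 without WT replicate 3 and 2 without DKO replicate 3.

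With the replicate number as a block, 2 ligand genes were called between DKO and Stab2KO, and Gdf10 in Stab2KO (adjusted p = 0.044) and Bmp4 in DKO (adjusted p = 0.023) also passed; same-numbered arrays correlated at -0.06 to 0.29, so the numbers were not taken to pair samples.

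Without single arrays the difference ranged from -0.099 to 0.0026 for Bmp2 in Stab1KO, from -0.10 to 0.033 for Bmp2 between Stab2KO and Stab1KO, from -0.077 to 0.051 for Bmp6 in Stab2KO, from -0.026 to 0.49 for Bmp7 in DKO, from -0.20 to 0.31 for Bmp7 between DKO and Stab1KO, from -0.056 to 0.46 for Bmp7 in the departure, from -0.36 to 0.24 for Hamp in Stab1KO and from -0.11 to 0.097 for Fstl3 in Stab2KO. Values near the array median of 5.11 limit how low a level can be read.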
